A study of Mus musculus with 5 samples.

Results

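MHC class II molecules display peptides to CD4+ T cells, and 8 genes of this route were followed here through tumors of MMTV-PyMT mice. The genes were H2-Aa, H2-Ab1, H2-Eb1, H2-DMa, H2-DMb1, H2-Oa, Cd74 and Ciita. They were picked by symbol, all 8 were found, and the count tables hold 31053 genes in all. The rule itself used no measured value, but the genes were proposed with earlier results of these data known. The tumors arise in mammary epithelium, where the MMTV promoter drives the polyoma virus middle T oncogene in FVB/N mice. Mice received either B20-4.1.1, an antibody against VEGF-A, or mouse IgG2a of clone C1.18.4 as the isotype control, in PBS. Both antibodies were given intraperitoneally at 5 mg/kg 2 times a week from 7 weeks of age for 6 weeks. Viable cells of 15 tumors were sequenced in droplets, 6 tumors from isotype and 9 from B20-4.1.1 mice, in 5 pools of 3 tumors. Each pool held tumors of 1 treatment, so pool and treatment cannot be told apart by a fixed term.

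The class II route begins in the endoplasmic reticulum, where the alpha and beta chains pair and the invariant chain, encoded by Cd74, occupies their groove. Proteases cut the invariant chain down to a short remnant in late endosomes, and the H2-M heterodimer then exchanges that remnant for peptide. Macrophages, dendritic cells and B cells are the cells known for this route, and CIITA is the coactivator that switches the whole gene group on.

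By role, H2-Aa and H2-Ab1 encode the alpha and beta chains of the I-A molecule, and H2-Eb1 the beta chain of I-E. H2-DMa and H2-DMb1 encode the chains of H2-M, the peptide exchanger, and H2-Oa the alpha chain of H2-O, which restrains H2-M. On GRCm38, the build of the submitters' processing notes (mm10), 6 of the genes lie within the MHC on chromosome 17. H2-Oa spans 34092340-34095234, H2-DMa 34119541-34139101 and H2-DMb1 34153072-34160230, all on the plus strand. H2-Ab1 follows at 34257689-34269419 on the plus strand, H2-Aa at 34282744-34287823 on the minus strand and H2-Eb1 at 34305867-34316674 on the plus strand.

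Class II promoters carry a conserved module, and the promoters of 4 members are shown because these genes split between cell classes in the counts below. RefSeq windows (GRCm38.p6, 250 bases before and 50 after the start) were given for 5 of the 8 genes. H2-Ab1, Cd74 and Ciita had no entry. Each line holds the 120 bases before the RefSeq start, on the strand of the gene. The RefSeq starts of H2-DMb1, H2-Oa and H2-DMa lie inside the gene spans given above, and all distances are counted from the RefSeq start. Capitals mark matches, on either strand, to the X box, a Y box (CTGATTGG), its CCAAT core on either strand (ATTGG, which lies inside the Y box) and a cyclic AMP response element (TGACGTCA).
H2-Aa (chr17:34287824-34287943, minus strand): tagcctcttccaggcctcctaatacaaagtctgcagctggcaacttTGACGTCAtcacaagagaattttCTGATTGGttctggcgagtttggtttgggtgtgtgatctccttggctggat
H2-Eb1 (chr17:34305747-34305866, plus strand): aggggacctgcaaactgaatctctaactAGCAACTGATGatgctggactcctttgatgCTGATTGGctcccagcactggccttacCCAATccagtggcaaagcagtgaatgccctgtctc
H2-DMb1 (chr17:34153071-34153190, plus strand): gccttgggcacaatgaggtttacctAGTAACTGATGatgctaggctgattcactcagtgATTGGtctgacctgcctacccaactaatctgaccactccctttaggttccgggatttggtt
H2-Oa (chr17:34092259-34092378, plus strand): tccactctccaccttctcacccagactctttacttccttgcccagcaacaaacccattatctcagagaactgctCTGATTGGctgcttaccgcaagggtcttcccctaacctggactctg
H2-Eb1 held an X box from 92 to 82 bases before the start and a Y box from 62 to 55. H2-DMb1 held an X box from 95 to 85, and at 61 to 57 only the CCAAT core, not the whole Y box. H2-Oa held a Y box from 46 to 39, and its X box match lay outside the printed stretch, from 141 to 131. H2-Aa held a Y box from 51 to 44 and a response element from 74 to 67, with no X box match in its window. H2-DMa has 2 windows, of which the first held no match and the second only the CCAAT core, from 198 to 194. Of 32851 windows of this length, 37.4% held ATTGG, 4.1% the Y box, 0.533% the X box and 1.79% the response element. The spellings were chosen after these sequences had been read, and a match is a description of the letters alone.

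The files held 30340 cells, of which 19533 passed the filters (10630 isotype and 8903 B20-4.1.1), with 4014509 to 23726246 UMIs per tumor. Cells were sorted into classes by gates, each a list of 8 marker genes (dendritic cells had shorter lists) that held none of the 8 class II genes. A cell took a class when at least 3 of its markers had a UMI and no other class reached more than 0.6 of that share. This gave 13790 epithelial, 2697 T, 1415 macrophage, 181 B and 107 dendritic cells, and 1166 cells (5.97%) stayed ungated. B cells were found almost wholly in B20-4.1.1 tumors, 176 against 5, and 3 of those tumors held 88, 30 and 55 of them. Within pools no tumors shared a cell barcode, and over the 90 pairs of tumors from different pools 94 barcodes were shared, at most 7 by 1 pair. Tumors of the first isotype pool had the lowest median number of UMIs per deposited cell (2192 to 2423) and the most deposited cells (3273 to 4215). A level below is the number of UMIs of a gene per 10000 UMIs of its class, and errors are SDs over tumors with at least 20 cells of the class unless stated. Per the labels each tumor of a pool was marked as a mouse of its own, and p-values measure the spread between these tumors.

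Cd74, the invariant chain (chromosome 18, 60803848-60812652, plus strand), was highest in the professional antigen-presenting classes. Summed over tumors it stood at 105 UMIs per 10000 in macrophage-gated cells, 100.2 in dendritic-gated cells (95% Poisson interval 98.1 to 102) and 94.1 in B-gated cells (91.8 to 96.5). Poisson and binomial intervals here cover counting error only. The 3 levels lay close together beside a spread over macrophage samples from 54.3 to 192. Levels in the other classes were far lower, at 0.928 in T-gated and 0.255 in epithelial-gated cells. Per tumor, Cd74 had a median of 99.7 in macrophages (13 tumors), 0.523 in T cells (range 0.0669 to 2.95, 15 tumors) and 0.246 in epithelial cells (0.119 to 0.542, 15 tumors).

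The I-A chains followed the same split between classes. H2-Aa averaged 51.9 ± 17.9 in macrophages (n = 13), 0.410 ± 0.495 in T cells (n = 15) and 0.161 ± 0.0945 in epithelial cells (n = 15). H2-Ab1 averaged 61.8 ± 18.7, 0.318 ± 0.286 and 0.185 ± 0.147 in the same order. Every macrophage sample was above every T and epithelial sample for both chains, while the T and epithelial ranges overlapped. In dendritic-gated cells summed over tumors, H2-Aa reached 68.7 (67.0 to 70.5) and H2-Ab1 61.0 (59.4 to 62.6), and in B-gated cells 48.1 (46.4 to 49.8) and 34.7 (33.3 to 36.1). The I-E chain H2-Eb1 averaged 0.952 ± 0.296 in macrophages, 0.0163 ± 0.0205 in T cells and 0.0123 ± 0.00474 in epithelial cells, and stood at 1.64 (1.39 to 1.94) in dendritic and 1.22 (0.971 to 1.52) in B cells. FVB/N mice carry an MHC haplotype other than that of the C57BL/6 reference, and how this touched the counts of these polymorphic genes was not tested.

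The H2-M and H2-O chains were spread over the classes differently. H2-DMa had close levels in the presenting classes, at 4.42 ± 0.868 in macrophages, 4.25 (3.83 to 4.70) in dendritic and 4.16 (3.68 to 4.69) in B cells. It was 0.159 ± 0.0770 in T cells and 0.0334 ± 0.0129 in epithelial cells. H2-DMb1, the partner chain, stood at 3.99 ± 1.26 in macrophages, 3.06 (2.71 to 3.45) in dendritic and 1.81 (1.495 to 2.16) in B cells. Its level in epithelial cells, 0.107 ± 0.0394, lay above its level in T cells, 0.0470 ± 0.0372, the reverse of the order of H2-DMa. H2-Oa had its highest level in B-gated cells, 2.34 (1.99 to 2.74), then 0.902 (0.714 to 1.12) in dendritic cells. In T cells it was 0.0611 ± 0.0386, in macrophages 0.0492 ± 0.0464 and in epithelial cells 0.00309 ± 0.00367, and the T and macrophage ranges overlapped. A UMI of H2-Oa was found in 53.6% of B, 34.6% of dendritic, 3.04% of macrophage and 3.04% of T cells.

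Ciita, the coactivator (chromosome 16, 10480059-10528418, plus strand), was at 0.837 ± 0.332 in macrophages, 1.84 (1.57 to 2.15) in dendritic and 1.78 (1.47 to 2.13) in B cells. In T cells it was 0.0217 ± 0.0158 and in epithelial cells 0.0148 ± 0.00583, ranges that overlapped.

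**Figure D1:**
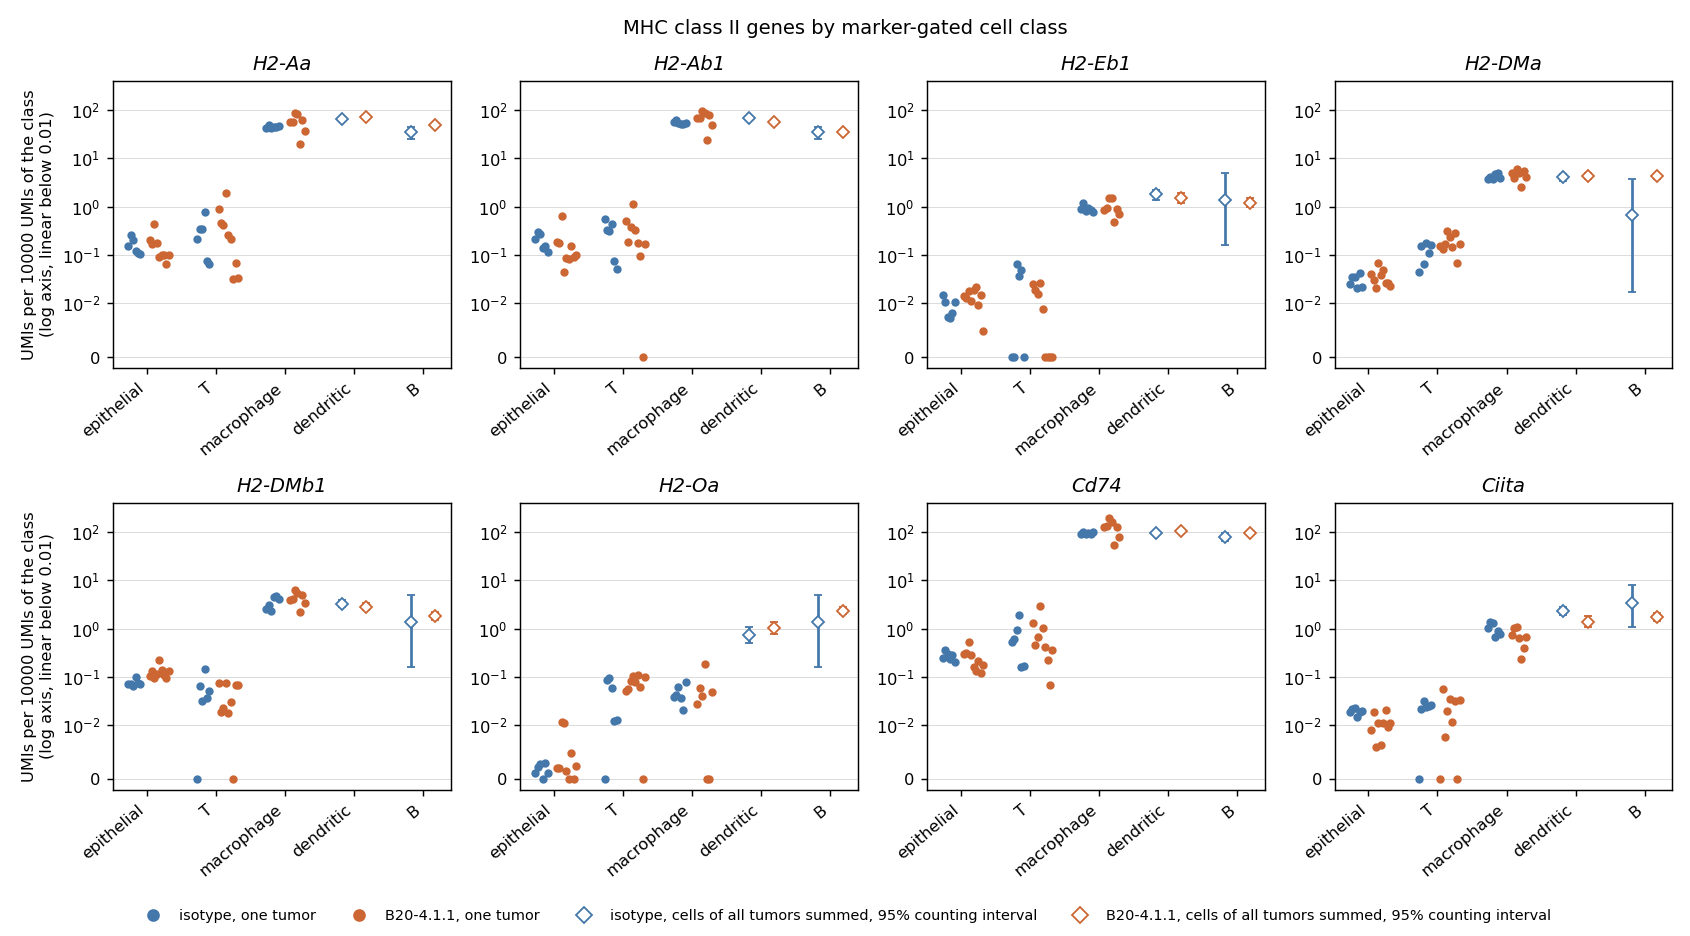
Levels of the 8 genes in UMIs per 10000 UMIs of the class, on a logarithmic axis that is linear below 0.01. Filled points are tumors with at least 20 cells of the class, and open diamonds are dendritic or B cells summed per treatment with 95% Poisson intervals; macrophage points stand above all epithelial and T points in every panel but that of H2-Oa, where B cells stand highest.

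The classes were compared within tumors to ask where the route is transcribed, with edgeR's quasi-likelihood test on counts summed per tumor and class, the tumor as a block, and 13 tumors that had at least 20 cells of each class. Of the 8 members 7 passed the filter on low counts (H2-Oa did not), and all 7 were higher in macrophages than in epithelial cells, in a fit where 37.7% of 8611 genes were higher and 40.6% lower (78.3% in all). The ratio was widest for Cd74 (469.6-fold, log2 8.88 ± 0.28 SE, Benjamini-Hochberg adjusted p = 2.95e-25) and narrowest for H2-DMb1 (38.4-fold, log2 5.26 ± 0.12, adjusted p = 6.71e-29). Between them lay H2-Ab1 at 388-fold, H2-Aa at 378-fold, H2-DMa at 144-fold, H2-Eb1 at 82.2-fold and Ciita at 51.4-fold. Against T cells all 7 were higher in macrophages as well, with log2 differences from 4.91 for H2-DMa to 8.08 for H2-Ab1, beside 33% of all genes higher and 32.3% lower (65.3% in all).

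T and epithelial cells were compared in the same fit. There 3 of the 7 members were higher in T cells, beside 37.5% of all genes, and 1 was lower, beside 40.6% (78.2% in all). H2-DMa was 4.79-fold higher in T cells (log2 2.26 ± 0.19 SE, edgeR adjusted p = 3.14e-13), Cd74 2.42-fold (adjusted p = 7.65e-05) and H2-Aa 1.96-fold (adjusted p = 0.00318). H2-DMb1 was lower in T cells, with a log2 difference of -1.35 ± 0.29 (adjusted p = 0.000104). H2-Ab1, H2-Eb1 and Ciita differed by 0.52, 0.13 and 0.53 on the log2 scale and did not pass.

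Low values in T and epithelial cells were set against neutrophil-gated cells, which should lack the route. With each cell thinned to 2500 UMIs, a Cd74 UMI was found in 11.2% of 98 neutrophils (95% Clopper-Pearson interval 5.74% to 19.2%), 11.3% of T cells and 4.58% of epithelial cells, against 92.8% of macrophages. Median depths before thinning were 3121.5 UMIs in neutrophils, 4083 in T, 8733 in epithelial and 6326 in macrophage cells, and without thinning the shares were 14.3%, 17.6%, 12.9% and 95.5%. The thinned share of T cells lay within the neutrophil interval and that of epithelial cells below it. As a level, Cd74 stood at 0.405 UMIs per 10000 in neutrophils (95% Poisson interval 0.226 to 0.667), 0.928 in T cells (0.876 to 0.982) and 0.255 in epithelial cells (0.247 to 0.264). The T level was thus above the neutrophil interval although the thinned shares were alike, and no order is read between these classes. The part of free RNA in these levels was not tested. H2-DMb1 had 0 of 370822 UMIs in neutrophils, with a 95% Poisson interval up to 0.0995 UMIs per 10000. Its summed level was 0.0989 in epithelial cells (0.0936 to 0.104, from 1338 UMIs) and 0.0443 in T cells (0.0335 to 0.0574). The epithelial interval holds the neutrophil limit, so H2-DMb1 in epithelial cells is not shown to lie above its level in neutrophils.

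Pairs of genes were also compared across classes as ratios of their UMIs within a class, which are not scaled for transcript length. In macrophages there were 46.3 ± 3.41 UMIs of H2-Aa and 55.8 ± 5.79 of H2-Ab1 per 100 of Cd74 (n = 13). The ratio in epithelial cells, 60.4 ± 11.3 of H2-Aa per 100 of Cd74 (n = 15), overlapped with the macrophage range. H2-Eb1 per 100 of Cd74 did not overlap, at 0.870 ± 0.140 in macrophages (range 0.687 to 1.17) and 5.79 ± 4.29 in epithelial cells (range 2.52 to 16.7). The epithelial value rests on 149 UMIs of H2-Eb1. The H2-M pair stood apart as well. There were 89.1 ± 16.2 UMIs of H2-DMb1 per 100 of H2-DMa in macrophages (range 61.6 to 114) and 338 ± 137 in epithelial cells (range 183 to 588, 10 tumors with at least 20 UMIs of H2-DMa), with no overlap. Cd74 was also set against macrophage complement transcripts. Per 100 UMIs of C1qa, C1qb and C1qc there were 94.7 ± 26.1 of Cd74 in macrophages and 192 ± 96.0 in epithelial cells. The epithelial ratio was the higher in 12 of 13 tumors, and the T ratio also in 12 of 13. These C1q genes are markers of the macrophage gate, which favors few of their UMIs in other classes. No order is read from these ratios.

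H2-DMb2 and H2-Eb2 are paralogs of H2-DMb1 and H2-Eb1 and share sequence with them, and counts of near-identical copies are uncertain. H2-DMb2, the neighboring second H2-M beta gene, was at 5.98 ± 1.31 UMIs per 10000 in B cells (3 B20-4.1.1 tumors), against 0.344 ± 0.114 in isotype macrophages and 0.00467 ± 0.00216 in isotype epithelial cells. H2-DMb1 was at 1.69, 1.63 and 2.11 in the same B cells, below its range of 2.23 to 6.37 in macrophages of both treatments. Among B, macrophage and epithelial cells, H2-DMb2 was thus the higher in B cells and H2-DMb1 in macrophages, with epithelial cells lowest for both. For H2-DMb2 this sets B cells of treated tumors against other classes of isotype tumors. H2-Ob, the partner of H2-Oa, was at 2.00 ± 0.463 in B cells and 0.211 ± 0.0693 in isotype macrophages. H2-Eb2 was at 0.356 ± 0.258 in B cells.

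Within a class, cells were followed by the number of 4 transcripts (Cd74, H2-Aa, H2-Ab1 and H2-Eb1) found after thinning to 2500 UMIs. None of the 4 was found in 5.94% of macrophages, 7.48% of dendritic, 79.5% of T and 89.99% of epithelial cells, beside 77.6% of neutrophils, while every B cell held at least 1. The median macrophage held 53 UMIs of the 4 genes, and the range from the 10th to the 90th percentile ran from 2 to 125. B cells were more even, with a median of 44 and percentiles of 28 and 72. Among 13790 epithelial cells, 44 held 3 of the transcripts and 3 held all 4.

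Dendritic-gated cells were split by the marker list that they matched best, and these sums of few cells have no replicate test. The 28 cells of the Xcr1 and Clec9a list, markers of cross-presenting dendritic cells, held 144 UMIs of Cd74 per 10000 (140 to 148), 7.30 of H2-DMa (6.40 to 8.28), 5.98 of H2-DMb1 (5.17 to 6.88) and 3.05 of Ciita (2.48 to 3.71). The 58 cells of the Ccr7 and Fscn1 list, markers of mature migratory dendritic cells, held 55.3 of Cd74 (53.0 to 57.6), 0.880 of H2-DMa (0.613 to 1.22), 0.251 of H2-DMb1 (0.121 to 0.462) and 0.427 of Ciita (0.249 to 0.684). All 4 were thus lower in the cells of the Ccr7 and Fscn1 list, with intervals that did not overlap. The 20 cells of the Cd209a list lay between for Cd74, at 124 (119 to 130). H2-Oa was at 1.62 (1.21 to 2.12) in the first list and 0.277 (0.138 to 0.495) in the Ccr7 and Fscn1 list.

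Macrophages were then compared between treatments, to ask whether VEGF-A blockade went with a change in their class II transcripts. Cd74 lay between 90.8 and 102 UMIs per 10000 in the 6 isotype tumors (median 94.2). In the B20-4.1.1 tumors it was 126 and 134 in pool 1, 192 and 164 in pool 2, and 54.3, 126 and 78.3 in pool 3. No treated tumor fell inside the narrow isotype range, as 5 lay above it and 2, both of pool 3, below it. H2-Aa ran from 43.2 to 49.4 in isotype (median 44.2) and from 20.3 to 86.3 in B20-4.1.1 tumors (median 57.7). H2-Ab1 ran from 51.9 to 62.0 (median 54.0) and from 23.6 to 95.9 (median 69.4). Both chains placed the same way, with 5 treated tumors above and 2 below the isotype range. The coefficient of variation was 4.99%, 5.33% and 6.83% in isotype and 37.7%, 40.8% and 36.5% in B20-4.1.1 tumors for Cd74, H2-Aa and H2-Ab1, a difference in spread that was not tested.

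The remaining members overlapped more between treatments. H2-Eb1 was 0.912 ± 0.141 in isotype and 0.987 ± 0.394 in B20-4.1.1 macrophages, and H2-DMa 4.23 ± 0.501 and 4.59 ± 1.11. H2-DMb1 was 3.57 ± 1.05 and 4.36 ± 1.39, and here the isotype pools themselves differed, at 2.65 ± 0.370 and 4.48 ± 0.359 (3 tumors each). Ciita was 1.00 ± 0.285 and 0.693 ± 0.317, with isotype pools at 1.23 ± 0.188 and 0.779 ± 0.120 and the third B20-4.1.1 pool at 0.434 ± 0.217. For both genes the gap between isotype pools was wider than the gap between treatments. H2-Oa was 0.0469 ± 0.0212 and 0.0512 ± 0.0625, from few UMIs.

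**Figure D2:**
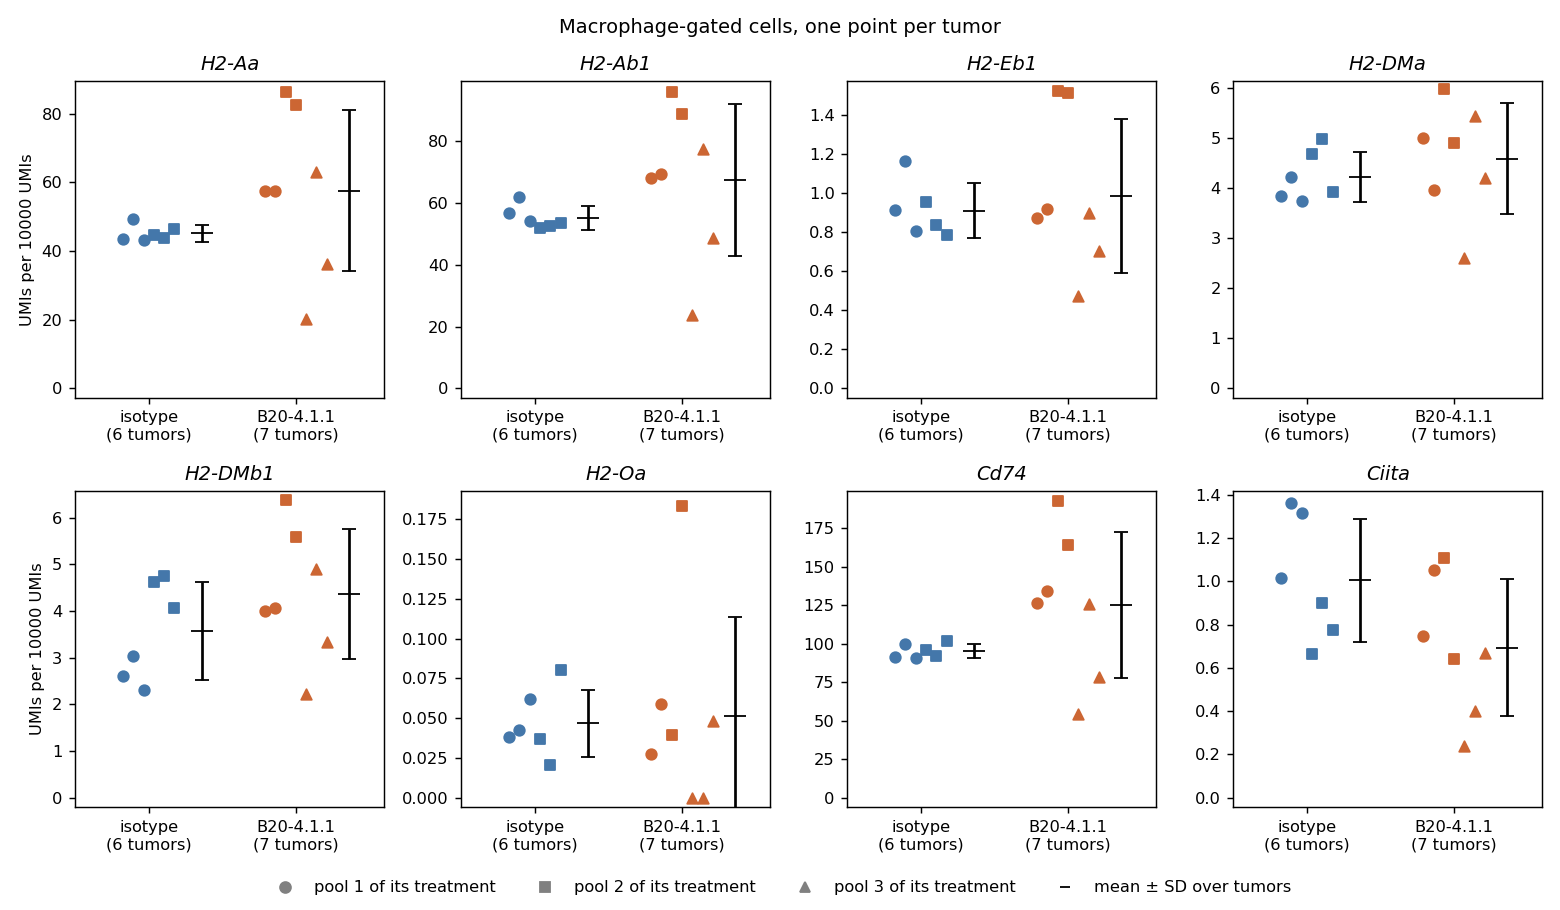
Levels in macrophage-gated cells, in UMIs per 10000 UMIs, with 1 point per tumor, the marker shape giving the pool within its treatment and bars the mean ± SD (the lower bar of H2-Oa runs below 0 and is cut at the axis). Isotype points of Cd74, H2-Aa and H2-Ab1 sit close together, while B20-4.1.1 points spread from 54.3 to 192 for Cd74.

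No member passed the test in macrophages. The fit across 6927 genes (6 isotype and 7 B20-4.1.1 tumors, edgeR, Benjamini-Hochberg) called 4 genes (0.0577%, with 0.0289% higher and 0.0289% lower) and found 736 at an unadjusted p under 0.05. Of 7 members tested 0 were called, 1 had an unadjusted p under 0.05, and DESeq2 called 0. The log2 fold change was 0.47 ± 0.21 for Cd74 (edgeR adjusted p = 0.423, error as SE), 0.43 ± 0.23 for H2-Aa (adjusted p = 0.534) and 0.37 ± 0.22 for H2-Ab1 (adjusted p = 0.584). Estimates of 6 members were positive, and that of Ciita was -0.41 ± 0.24 (adjusted p = 0.581). The median over the 7 was 0.36, beside 0.0094 over all genes. The value of Cd74 rested on single pools, at 0.75 (adjusted p = 0.0571) without the third B20-4.1.1 pool and 0.18 without the second. The B20-4.1.1 tumors left out for having 14 and 19 macrophages had 130.2 and 123 UMIs of Cd74 per 10000.

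Cell makeup of the macrophage gate was read beside these values. A list of 6 monocyte genes (Ccr2, Chil3, F13a1, Fn1, Ly6c2 and Plac8) summed to 11.5 ± 9.55 UMIs per 10000 in isotype (4.24 to 29.7) and 10.4 ± 5.69 in B20-4.1.1 macrophages (4.66 to 19.6). A list of 5 dendritic genes (Ccr7, Cd209a, Flt3, Xcr1 and Zbtb46) summed to at most 0.0704 and 0.0917. These 5 genes are also markers of the dendritic gate, which keeps them low in macrophage-gated cells. Their sums near 0 in both groups therefore say little about dendritic content. The part of the monocyte genes in the spread of class II levels was not tested.

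The 3 most abundant members kept their proportions while their level varied. There were 47.4 ± 1.37 UMIs of H2-Aa per 100 of Cd74 in isotype and 45.3 ± 4.40 in B20-4.1.1 macrophages, and 58.0 ± 4.21 and 53.8 ± 6.56 of H2-Ab1. Across the 13 tumors the log2 level of H2-Aa had a Pearson r of 0.982 with that of Cd74, H2-Ab1 0.952, H2-Eb1 0.883, H2-DMb1 0.818 and H2-DMa 0.814. Over the 6 isotype tumors alone, where these levels varied little, r was 0.910 for H2-Aa, 0.761 for H2-DMb1, 0.472 for H2-DMa, 0.296 for H2-Ab1 and 0.194 for H2-Eb1. Over the 7 B20-4.1.1 tumors it ran from 0.862 for H2-DMa to 0.988 for H2-Aa. The pooled values of H2-Ab1, H2-Eb1 and H2-DMa were thus carried mainly by the treated tumors. Ciita had an r of 0.348 with Cd74, -0.55 over the isotype and 0.736 over the B20-4.1.1 tumors. Among 4603 genes ranked, those outside the members most like Cd74 were Gngt2 (r = 0.899), Cdk11b (0.892), Il1b (0.878), Sertad1 (0.854) and Gm8797 (0.853). In isotype tumors alone r was 0.906 for Gngt2, 0.772 for Cdk11b and 0.635 for Gm8797, but 0.132 for Il1b and 0.196 for Sertad1. These are descriptions over tumors that share pools and depth, and the treatments differ in spread.

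Mrc1 encodes the mannose receptor CD206, which the study used beside MHC class II to describe macrophages, both as protein by flow cytometry. The split here is on RNA. In thinned cells of the 9 tumors with at least 10 cells of each kind, H2-Eb1 was at 1.17 ± 0.365 UMIs per 10000 with and 0.870 ± 0.282 without a Mrc1 UMI, higher with Mrc1 in 8 of 9 tumors. H2-DMa was at 5.40 ± 1.48 and 4.14 ± 0.723, higher with Mrc1 in 6 of 9. Cd74 was at 107 ± 32.7 and 111 ± 28.3, higher with Mrc1 in 2 of 9. The chains H2-Aa and H2-Ab1 were higher with Mrc1 in 5 and 4 of 9 tumors. A single UMI of Mrc1 is a coarse split, and no test was made.

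Epithelial cells, the class of the tumor itself, gave 1 call among the 7 members tested, near the share of all genes called (14.4%). A call at this share does not set the members apart from other genes. H2-DMb1 was called as higher in B20-4.1.1 tumors with tumors as replicates, while the other members that could be tested did not pass. In isotype tumors H2-DMb1 lay between 0.0665 and 0.1003 UMIs per 10000 (median 0.0731), and in B20-4.1.1 tumors between 0.0973 and 0.222 (median 0.113). Above the isotype range lay 7 of 9 treated tumors, and the other 2 lay within it. The isotype mean was 0.0767 ± 0.0120 and the B20-4.1.1 mean 0.127 ± 0.0384, from 597 and 741 UMIs. Pool means were 0.0702 and 0.0831 in isotype and 0.111, 0.157 and 0.113 in B20-4.1.1, so every treated pool stood above both control pools.

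In the fit across 12332 genes (6 against 9 tumors), edgeR called 14.4% of genes, 7.44% as higher and 6.95% as lower, and of 7 members tested 1 was higher and 0 were lower. H2-DMb1 was 1.75-fold higher (log2 0.81 ± 0.18 SE, adjusted p = 0.00774). H2-DMb1 no longer passed when voom took pools as random blocks (log2 0.91, adjusted p = 0.115), when counts were summed per pool (0.92, adjusted p = 0.413) or when isotype pool 1 was dropped (0.60, adjusted p = 0.130). It passed under the other 12 of 15 alternatives.

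Epithelial cells with no UMI of Cd74, H2-Aa, H2-Ab1 or H2-Eb1 were also read alone, a choice made after the values were seen. They were 74.2% of isotype and 71.0% of B20-4.1.1 epithelial cells and held 66.8% and 66.4% of the H2-DMb1 UMIs. There H2-DMb1 was at 0.0711 ± 0.00938 in isotype (0.0611 to 0.0878) and 0.129 ± 0.0397 in B20-4.1.1 tumors (0.0872 to 0.215). The difference was as large as in all epithelial cells, at log2 0.92 ± 0.17 (edgeR adjusted p = 0.00356). In all epithelial cells, without the 3 tumors that held most B cells, it was 0.86 (edgeR adjusted p = 0.0164). Both fits took tumors as replicates and were not repeated with pools as random blocks or on sums per pool. They therefore share the limit that pools are nested in treatment. A list of 8 immune genes summed to 0.686 ± 0.334 UMIs per 10000 in isotype and 0.677 ± 0.250 in B20-4.1.1 epithelial cells. The close sums hid opposite moves. Cd79a, a B cell gene, was at 0.00081 ± 0.00079 in isotype and 0.00743 ± 0.0101 in B20-4.1.1 tumors. Fcer1g, Ptprc and Tyrobp also had higher means in B20-4.1.1 tumors, and C1qa, C1qb, C1qc and Lyz2 lower ones. The C1q genes and Cd79a are markers of other gates, which keeps them low here. The part of immune RNA in the H2-DMb1 level was not tested.

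**Figure D3:**
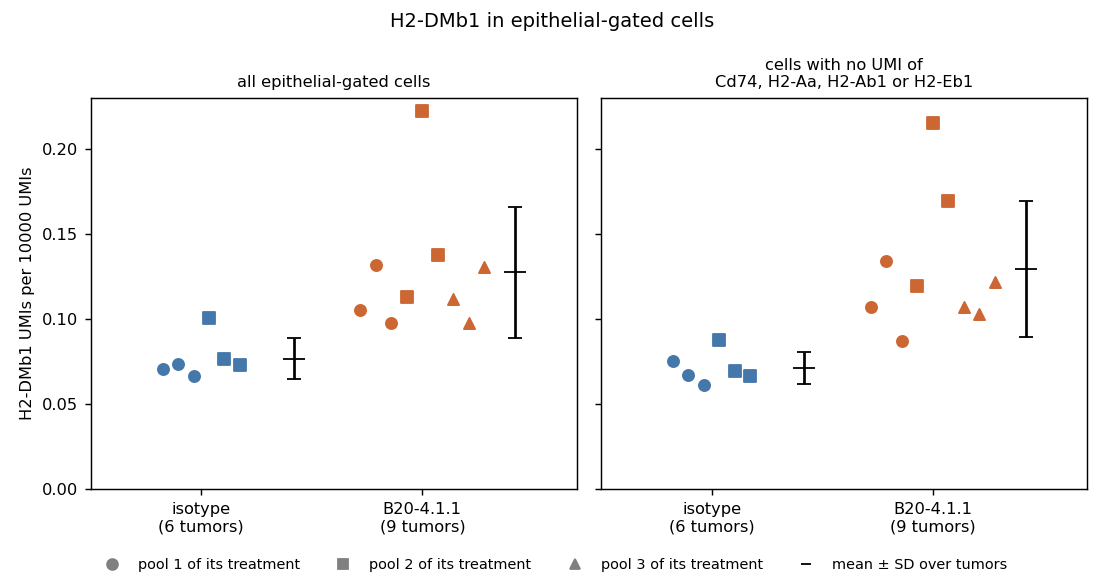
H2-DMb1 in epithelial-gated cells, in UMIs per 10000 UMIs, 1 point per tumor with the marker shape giving the pool and bars the mean ± SD, for all cells on the left and for cells without a UMI of 4 other class II genes on the right. The B20-4.1.1 mean is 0.127 against 0.0767 on the left and 0.129 against 0.0711 on the right.

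Other members in epithelial cells did not pass. H2-Eb1 was at 0.00982 ± 0.00278 in isotype and 0.0140 ± 0.00516 in B20-4.1.1 tumors (log2 0.52 ± 0.27, edgeR adjusted p = 0.201). Ciita was at 0.0195 ± 0.00273 and 0.0116 ± 0.00519 (log2 -0.54 ± 0.26, adjusted p = 0.163), and 7 of 9 treated tumors lay below the isotype range. Cd74, H2-Aa, H2-Ab1 and H2-DMa had log2 fold changes of -0.07, 0.09, -0.05 and 0.22. For Cd74, H2-Aa and H2-Ab1 the sign changed between alternatives, and the treated tumor with the most B cells had the highest level of each.

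In T cells 3 members passed the filter. Cd74 ran from 0.160 to 1.95 in isotype and from 0.0669 to 2.95 in B20-4.1.1 tumors, ranges that overlapped almost wholly. The log2 fold changes were 0.48 ± 0.61 for Cd74, 0.95 ± 0.70 for H2-Aa and 0.69 ± 0.59 for H2-Ab1. edgeR called 0 of 3 members and 0% of 6001 genes, with 0 members and 976 genes at an unadjusted p under 0.05, and DESeq2 called 56 genes and 0 members. Transcripts of C1qa, C1qb, Cd79a and Ms4a1 summed to 0.185 ± 0.153 UMIs per 10000 in isotype and 0.239 ± 0.120 in B20-4.1.1 T cells. Of these, Cd79a and Ms4a1 were at 0 in isotype and at 0.0134 ± 0.0169 and 0.00432 ± 0.00661 in B20-4.1.1 T cells. C1qb also had the higher mean in B20-4.1.1 T cells, and C1qa the lower. A list of 4 NK cell genes (Klrb1c, Klrd1, Klre1 and Ncr1) summed to 1.28, 1.73 and 1.47 in the T cells of the 3 tumors rich in B cells and to 5.14 to 13.4 in every other tumor. Those 3 tumors held 661, 345 and 581 of the 2056 treated T cells, and without them the log2 fold change of Cd74 was -0.079. The part of either list in these levels was not tested.

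**Figure D4:**
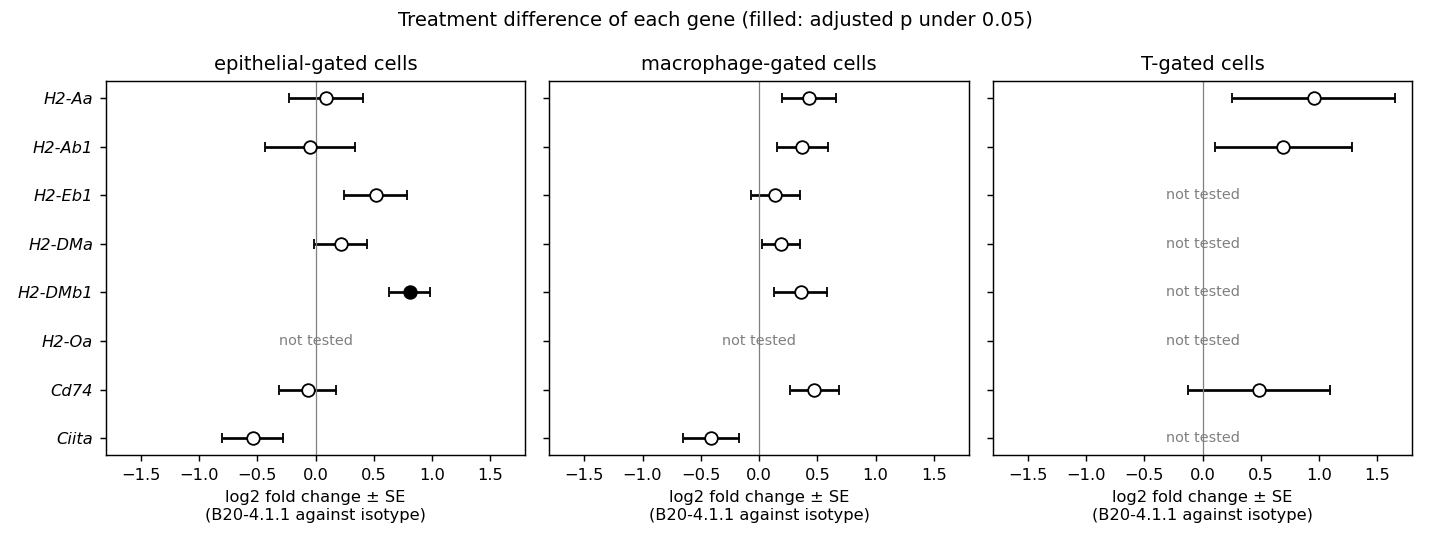
Log2 fold changes ± SE of the 8 genes, B20-4.1.1 against isotype, in epithelial-gated (6 and 9 tumors), macrophage-gated (6 and 7) and T-gated cells (6 and 9), filled where the edgeR adjusted p is under 0.05. The 1 filled point is H2-DMb1 in epithelial cells at 0.81, and genes that did not pass the filter are marked as not tested.

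Whether the effect of treatment differed between classes was tested as an interaction in 13 tumors. Macrophages against epithelial cells gave 9 calls among 9760 genes (0.0922%) and T against epithelial cells 5 (0.0512%), and no member was among them. The log2 fold change of H2-DMb1 in macrophages less that in epithelial cells was -0.52 ± 0.19 (edgeR adjusted p = 0.404), and that in T cells less that in epithelial cells -1.85 ± 0.56 (adjusted p = 0.244). The treatment difference of H2-DMb1 in epithelial cells is therefore not shown to differ from that in macrophages or T cells.

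Other genes of the route were read from a list of 35, of which 31 were in the files. In epithelial cells 22 were tested, 4 rose and 2 fell, beside 7.44% of all genes higher and 6.95% lower (14.4% in all), with a median of 0.13 on the log2 scale beside -0.0038 over all genes. None of these 6 calls held with pools as random blocks (adjusted p from 0.126 to 0.304) or on sums per pool (0.417 to 0.564), and 1, that of Lgmn, held without isotype pool 1. Without B20-4.1.1 pool 1, 2 or 3 there were 4, 3 and 4 of the 6 that held, Lgmn and Ifngr1 each time. Those that rose were Lgmn and the cathepsins Ctsl and Ctsb, endosomal proteases, and Ifngr1, a chain of the interferon gamma receptor. Lgmn was at 0.0939 ± 0.0241 in isotype and 0.149 ± 0.0303 UMIs per 10000 in B20-4.1.1 tumors (log2 0.71 ± 0.13, edgeR adjusted p = 0.00315). Ctsl differed by 0.42 ± 0.10 (adjusted p = 0.0138), Ctsb by 0.36 ± 0.09 (adjusted p = 0.0126) and Ifngr1 by 0.46 ± 0.09 (adjusted p = 0.00517). Those that fell were Rfx5, a subunit of the factor that binds the X box, by -0.52 ± 0.16 (adjusted p = 0.0395) and Nfya, a subunit of the CCAAT-binding factor, by -0.41 ± 0.10 (adjusted p = 0.0168). In macrophages 25 genes of the list were tested and edgeR called 0, with 5 at an unadjusted p under 0.05. In T cells 15 were tested and 0 called, again with 5.

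The class that carried the Cd74 transcripts of a tumor was read from the share of all its Cd74 UMIs, which moves with the number of cells of each class. Macrophages carried 74.3% ± 12.0 in isotype (n = 6) and 63.5% ± 20.6 in B20-4.1.1 tumors (n = 9). B cells carried 0.129% ± 0.105 and 10.2% ± 16.1, from 42.9%, 21.7% and 26.6% in the 3 tumors rich in B cells and at most 0.292% in any other treated tumor. In those 3 the macrophage share was 27.0%, 42.1% and 42.4%, below that of every other tumor. Dendritic cells carried 5.09% ± 1.93 and 6.38% ± 2.71 and T cells 0.432% ± 0.707 and 1.61% ± 2.71. Epithelial cells, 13790 of the 19533, carried 2.90% ± 0.904 and 2.23% ± 1.99.

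None of the 5 shares differed beyond the spread between tumors. The exact two-sided permutation test over 5005 splits gave p = 0.185 for B cells, 0.273 for macrophages, 0.346 for dendritic, 0.387 for T and 0.485 for epithelial cells. Adjusted over the 5 classes, these exact p were 0.484 for the first 4 and 0.485 for epithelial cells. Over whole pools the exact p was 0.4 for both B cells and macrophages, where 0.1 is the smallest that 10 splits can give.

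**Figure D5:**
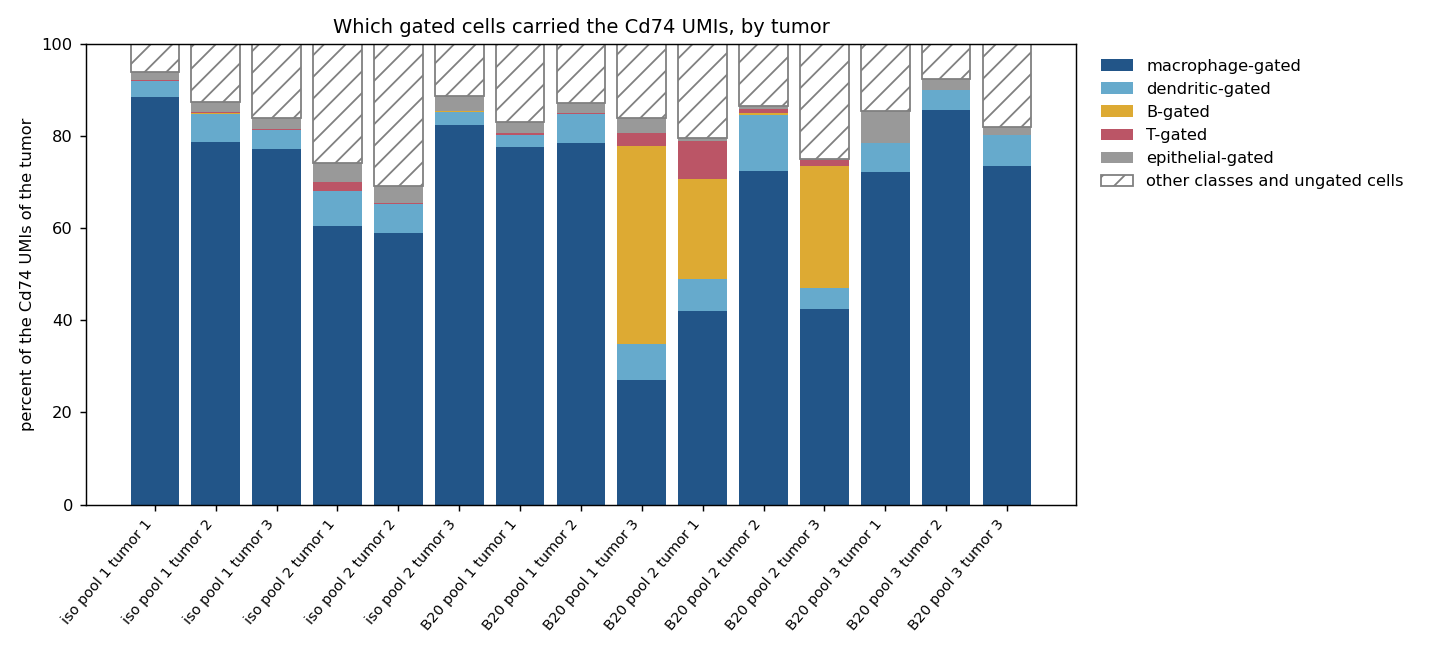
Percent of the Cd74 UMIs of each tumor that lay in macrophage, dendritic, B, T and epithelial cells, with all other cells hatched, for 6 isotype tumors (left) and 9 B20-4.1.1 tumors. Macrophages hold most of the bar in isotype tumors, and B cells hold 42.9%, 21.7% and 26.6% in 3 treated tumors.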

How the data were processed

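Gene counts of the authors were analysed as deposited, as raw UMI counts with 1 matrix per tumor (31053 genes and 12 multiplexing features), made with Cell Ranger 6.1.2 per the file headers on mm10 per the labels. Cell Ranger, bcl2fastq and Seurat 4.3.0 are the tools of the submitters' processing notes, and the annotation release is not given in the sources used here. Cells with 2500 to 27500 UMIs and at most 20% mitochondrial UMIs were kept. Doublets were set aside only by the UMI maximum and the gates. Positions of genes come from a GRCm38 annotation, matched by gene identifier.

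Counts were summed per tumor and class (at least 20 cells) and tested with edgeR 4.0.16 (quasi-likelihood F test, TMM, filterByExpr, two-sided, Benjamini-Hochberg over all genes tested, threshold 0.05), in R 4.3.3 with limma 3.58.1 (voom with the pool as a random block) and DESeq2 1.42.0 as alternatives. The edgeR tests between treatments were checked on simulated counts, drawn for each tumor independently. These counts held no effect shared by a pool, so false calls from pools were not checked. All other steps used Python 3.11.15 with scipy 1.17.1, numpy 2.4.6, pandas 2.3.3 and matplotlib 3.10.9. Other settings were stricter and looser gates, a UMI minimum of 1000, at least 10 cells per tumor, no filter, sums per pool and leaving out each pool. Named were the 8 members and genes of a list of 35 that passed a test or are paralogs or partner chains. The 5 genes most like Cd74 with an average log2 CPM of at least 5 were named too. The members and lists were chosen with earlier results of these data known. The labels do not give the hypoxia class of the treated tumors, which was not used here.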

Additional observations from a re-analysis of the deposited data

Results flagged for a closer look

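Tumors were compared with the rest of their group by Dixon's gap test at its 95% critical value, in 58 groups of 4 to 10 tumors. It picked out 13 values. The rate of about 1 in 20 groups holds for normal and independent values. Some values here rest on few or 0 UMIs, and members of the same tumors move together. The 13 are therefore not read as an excess. Of these, 8 belong to the treated tumors rich in B cells. In epithelial-gated cells, the third tumor of B20-4.1.1 pool 1, with 88 B cells, stood far above the other treated tumors for H2-Aa (0.442 UMIs per 10000, next 0.206), H2-Ab1 (0.651, next 0.184) and Cd74 (0.542, next 0.311). In T-gated cells, the first tumor of B20-4.1.1 pool 2 was the highest for H2-Aa (1.93, next 0.880), H2-Ab1 (1.15, next 0.503) and Cd74 (2.95, next 1.33), and the T cells of this tumor carried 8.41% of its Cd74 UMIs (next 2.94%).

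H2-DMb1 in epithelial cells was flagged in both groups, at 0.1003 in the first tumor of isotype pool 2 (next 0.0762) and 0.222 in the second tumor of B20-4.1.1 pool 2 (next 0.138), from 150 and 141 UMIs. H2-Oa in macrophages reached 0.183 in the third tumor of B20-4.1.1 pool 2, from 4 UMIs. Ciita in T cells was at 0 in the first tumor of isotype pool 1. The share of Cd74 UMIs was far from the others in epithelial cells of the first tumor of B20-4.1.1 pool 3 (6.85%, next 3.06%) and in T cells of the first tumor of isotype pool 2 (1.87%, next 0.219%). The causes were not tested.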

How the results depend on the processing

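No paired analysis was possible because replicate numbers only name the pools and no label ties an isotype to a B20-4.1.1 sample. Leaving out a replicate meant leaving out a pool, and leaving out the 3 tumors with most B cells was chosen after seeing the data.

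Genes called in epithelial cells (1774) were 45 with voom and the pool as a random block and 0 on sums per pool. Leaving out 1 replicate (pool) gave 423 to 5483 genes, lowest without isotype replicate 1 and highest without isotype replicate 2. Calls in macrophages (4) were 56 with no filter, 33 with DESeq2, 7 with a UMI minimum of 1000, 1 with the looser gate, with at least 10 cells per tumor and without the 3 tumors with most B cells, and 0 with the stricter gate, voom and pool sums, and 0 to 587 without a pool, highest without isotype pool 2. Calls in T cells (0) were 56 with DESeq2, 2 with the stricter gate, 3 without the 3 tumors with most B cells and 0 to 353 without a pool, highest without B20-4.1.1 pool 3. With no filter 11005 and 10875 genes differed from epithelial cells in macrophages and T cells, against 6741 and 6730.

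Log2 fold changes of H2-Aa in epithelial cells turned to -0.24 with voom, -0.078 on pool sums, -0.28 with a UMI minimum of 1000, -0.24 without the 3 tumors with most B cells and -0.57 to 0.45 without a pool. H2-Ab1 there was 0.16 and 0.26 with the stricter and looser gates and -0.80 to 0.35 without a pool, and passed only without B20-4.1.1 pool 1 (-0.80, edgeR adjusted p = 0.0473). Cd74 there was 0.19 and 0.67 with these gates and -0.55 to 0.16 without a pool. Without a pool H2-Eb1 in macrophages ran from -0.19 (B20-4.1.1 pool 2 left out) to 0.40, H2-DMb1 there from -0.016 (isotype pool 1 left out) to 0.81, and Cd74 in T cells from -0.25 (B20-4.1.1 pool 2 left out) to 0.81, with -0.079 without the 3 tumors with most B cells. The difference in the epithelial share of Cd74 ran from -1.42 to 0.192 percentage points without a pool. The causes were not tested. Of 240 values of members between treatments, 217 kept direction and side of the threshold, as did 82 of 84 between classes. In T against epithelial cells, voom left H2-Aa at 0.73, not passing, and Ciita at 0.96, passing. Depth limits H2-Oa, Ciita and H2-Eb1 outside the presenting classes, where a tumor gave few UMIs.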
